A study of Danio rerio with 6 samples.

Results

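The epicardial transcription factor genes tcf21, wt1a, wt1b and tbx18 were followed in RNA from sorted zebrafish atrial cardiomyocytes (CMs). They were taken by symbol from the deposited gene table, and all 4 of the 23000 listed genes were found in a single row each. Hearts were dissected at 72 and at 48 hours post fertilization (hpf) from wild-type animals, with 3 libraries per stage and 6 in all. All animals carried myh6:mTagBFP2 for atrial CMs, myh7:mCherry-NTR for ventricular CMs and a 7XTCF-Sia:eGFP reporter of Wnt/β-catenin activity. The sort took live single cells with high mTagBFP2, without eGFP and with low or no mCherry, and each library pooled cells of many hearts. No reporter in the gate marks the epicardium. The gate on high mTagBFP2 was aimed at cells with this CM reporter, and whether epicardial cells passed it as well was not tested. The study describes the sorted cells as mostly but not fully pure. Replicates 1 and 2 of each stage came from a BD FACSAria and a BigFoot sorter, and replicate 3 from the BigFoot alone. The study states that embryonic atrial CMs are few, so that several sorting sessions were needed to collect enough cells. It also states that quality control of the RNA was skipped because its amount was low.

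The epicardium is the mesothelial sheet on the outside of the heart. Its precursors form the proepicardium beside the heart tube, attach to the beating myocardium and spread over it, and some of their descendants later enter the wall as mural cells and fibroblasts. Tcf21 is a basic helix-loop-helix factor, Tbx18 a T-box repressor, and Wt1a and Wt1b are zinc finger proteins, the zebrafish duplicates of the mammalian Wilms tumour factor WT1. Reporters of tcf21, tbx18 and wt1b are in common use to label the zebrafish epicardium. The factors also act elsewhere, tcf21 in pharyngeal mesoderm and both wt1 genes in the podocytes of the kidney.

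Library totals were between 3577234 and 4541886 counts at 72 hpf and between 3694451 and 5629941 at 48 hpf. Counts are given with CPM, counts for each 1000000 of the library total, and a floor of 3 counts in a library stands for between 0.533 and 0.839 CPM. This floor covers counting error only. It does not cover transcripts lost at low RNA input. Whether such loss added to missing counts or to differences between replicates was not tested. The atrial CM markers, of which 6 of 7 were used because actc1a occupies several rows, summed to between 3417 and 4001 CPM at 72 hpf and between 2746 and 3943 CPM at 48 hpf. Counts of the marker myl7 were 1813, 1781 and 1708 at 72 hpf, against 1893, 1830 and 1782 at 48 hpf. They varied less than the library totals did, so that their CPM partly follows the total. The sum is therefore no measure of the share of atrial CMs in a library. The labels number the libraries of a stage as separate samples but do not tie them to separate clutches, so that p-values measure the spread between these samples, which may be technical in part.

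All 4 factor genes were measured well above the floor in every library, the lowest value being 20 counts, and all 4 had a lower mean at 72 hpf than at 48 hpf. The difference was not called for any of them, where edgeR called 1 of 16100 tested genes higher and 0 lower. The libraries of a stage also differed among themselves by about as much as the stage means did, or more. At both stages the replicate 2 library held the highest CPM of each factor, as it did for 14.3% of all tested genes and for 8 of 15 other epicardial genes. Which cells of the sorted pools the counts came from was not tested, and fewer cells of a type and less RNA per cell cannot be told apart in such bulk samples.

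The gene tcf21 lies on chromosome 23 of danRer11 from 31554269 to 31555696, on the minus strand. It had 70, 227 and 63 counts in replicates 1, 2 and 3 at 72 hpf, against 316, 603 and 166 counts at 48 hpf. These correspond to 15.4, 50.8 and 17.6 CPM at 72 hpf and to 66.9, 107 and 44.9 CPM at 48 hpf. Replicates 1 and 3 at 72 hpf were below every 48 hpf library, while replicate 2 at 72 hpf was above replicate 3 at 48 hpf, so that the stages overlapped in a single library each. The mean was 28.0 ± 19.9 CPM (SD, n = 3) at 72 hpf and 73.0 ± 31.5 CPM (SD, n = 3) at 48 hpf. The log2 fold change was -1.40 with a standard error of 0.56 (adjusted p = 0.558 from edgeR's quasi-likelihood test, Benjamini-Hochberg over all tested genes).

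The duplicate gene wt1a is on chromosome 25, minus strand, from 15178225 to 15214161. Its counts were 61, 218 and 82 at 72 hpf, against 277, 708 and 154 at 48 hpf, which is 13.4, 48.8 and 22.9 CPM at 72 hpf and 58.6, 126 and 41.7 CPM at 48 hpf. The 6 libraries stood in the same order as for tcf21, and the stages overlapped at the same place. Mean levels were 28.4 ± 18.3 CPM (SD, n = 3) at 72 hpf and 75.4 ± 44.5 CPM (SD, n = 3) at 48 hpf, with a log2 fold change of -1.42 (SE 0.60, adjusted p = 0.564 from edgeR).

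The T-box gene tbx18 is on the plus strand of chromosome 23 from 31107685 to 31118371. It had the most counts of the 4, with 193, 805 and 352 at 72 hpf, against 998, 1743 and 369 at 48 hpf. As CPM these were 42.5, 180 and 98.4 at 72 hpf and 211, 310 and 99.9 at 48 hpf. Replicate 2 at 72 hpf was above replicate 3 at 48 hpf, so that the stages overlapped, and replicate 3 at 72 hpf was almost level with replicate 3 at 48 hpf. The mean was 107 ± 69.3 CPM (SD, n = 3) at 72 hpf and 207 ± 105 CPM (SD, n = 3) at 48 hpf, and the log2 fold change was -0.96 (SE 0.56, adjusted p = 0.653 from edgeR).

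The other duplicate, wt1b, is on chromosome 18, minus strand, from 45594085 to 45617146. It had 35, 243 and 20 counts at 72 hpf, against 138, 280 and 48 counts at 48 hpf. In CPM, 7.71, 54.4 and 5.59 at 72 hpf stood against 29.2, 49.7 and 13.0 at 48 hpf. Replicate 2 at 72 hpf had the highest CPM of all 6 libraries, and within that stage it was 9.73-fold above replicate 3, the widest spread of the 4 genes at either stage. The mean of 22.6 ± 27.6 CPM (SD, n = 3) at 72 hpf and that of 30.6 ± 18.4 CPM (SD, n = 3) at 48 hpf differed by less than either SD. The log2 fold change was -0.45 with a 95% interval from -2.68 to 1.77 (adjusted p = 0.954 from edgeR), an interval that spans 0.

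**Figure D1:**
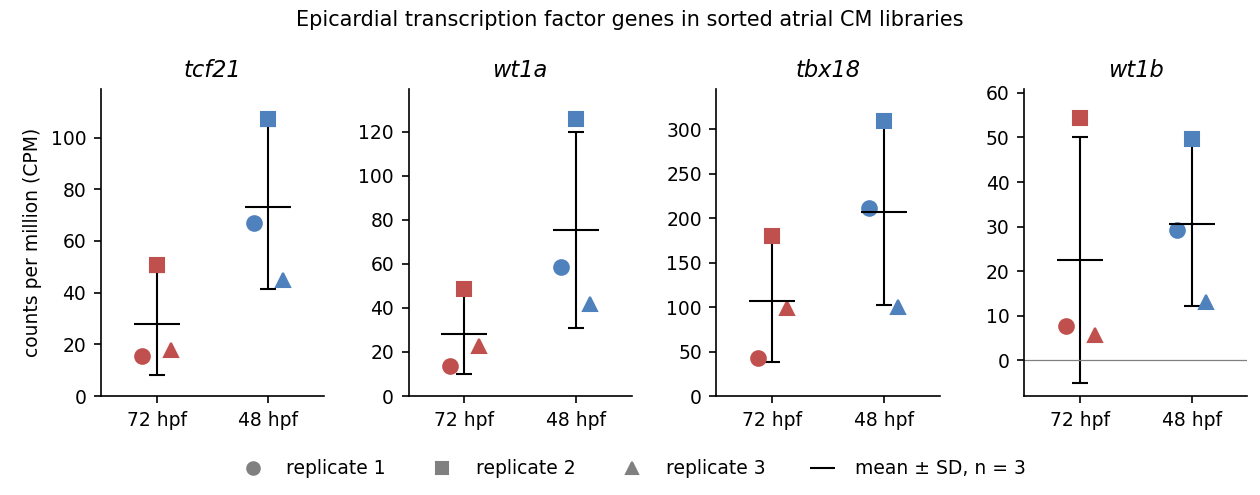
CPM of tcf21, wt1a, tbx18 and wt1b in the 3 libraries at 72 hpf (red, left) and the 3 at 48 hpf (blue, right), with symbols for the replicate number and a black mark and bar for the mean ± SD. Each gene has its own linear axis, and the replicate 2 libraries (squares) are the highest at both stages, at 50.8 and 107 CPM for tcf21.

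Among the 16100 genes that passed the filter of a mean normalized count above 5, edgeR called 0 (0%) lower at 72 hpf, at an adjusted p below 0.05 and a change of at least 1.5-fold, and 1 higher. The 4 factor genes passed the filter and 0 of them were called. At an unadjusted p below 0.05 in edgeR 2 of the 4 were lower, tcf21 and wt1a, beside 5.61% of all tested genes. DESeq2 called 2.85% of its tested genes lower and 0 of the 4, with adjusted p-values of 0.0787 for tcf21, 0.0900 for wt1a, 0.601 for tbx18 and 0.902 for wt1b. The median log2 fold change of the 4 was -1.18, beside -0.02 for all tested genes. For 8.90% of the tested genes the 72 hpf libraries all lay below those of 48 hpf, and this held for 0 of the 4. The two-sided exact permutation test on log2(CPM + 1), which cannot go below 0.1 with 3 libraries against 3, gave 0.2 for tcf21, wt1a and tbx18 and 0.5 for wt1b.

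A single library had much weight in these estimates. Replicate 2 held the highest CPM of each factor at both stages. Leaving it out at 72 hpf therefore had to lower each estimate, and leaving it out at 48 hpf had to raise it. The p-values of these fits are a description only, because replicate 2 stands out by the values of the same genes. Without replicate 2 at 72 hpf the log2 fold changes were -2.16 for tcf21, -2.07 for wt1a, -1.57 for tbx18 and -2.22 for wt1b, with unadjusted p-values from edgeR of 0.00333, 0.0115, 0.0278 and 0.0326. In that fit 1064 of 15991 tested genes were lower at an unadjusted p below 0.05. The smallest adjusted p was then 0.260, for tcf21. Without replicate 2 at 48 hpf the estimates were nearer to 0, at -1.01, -0.83, -0.55 and 0.08 for tcf21, wt1a, tbx18 and wt1b. The unadjusted p-values from edgeR were then 0.155, 0.223, 0.391 and 0.943. Within replicates 1 and 2, which were sorted on both instruments, the log2 fold changes were -1.42 for tcf21, -1.59 for wt1a, -1.25 for tbx18 and -0.37 for wt1b, with adjusted p-values from 0.666 to 0.953 in edgeR. Replicate 3, sorted on a single instrument, gives 1 library per stage and no test.

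**Figure D2:**
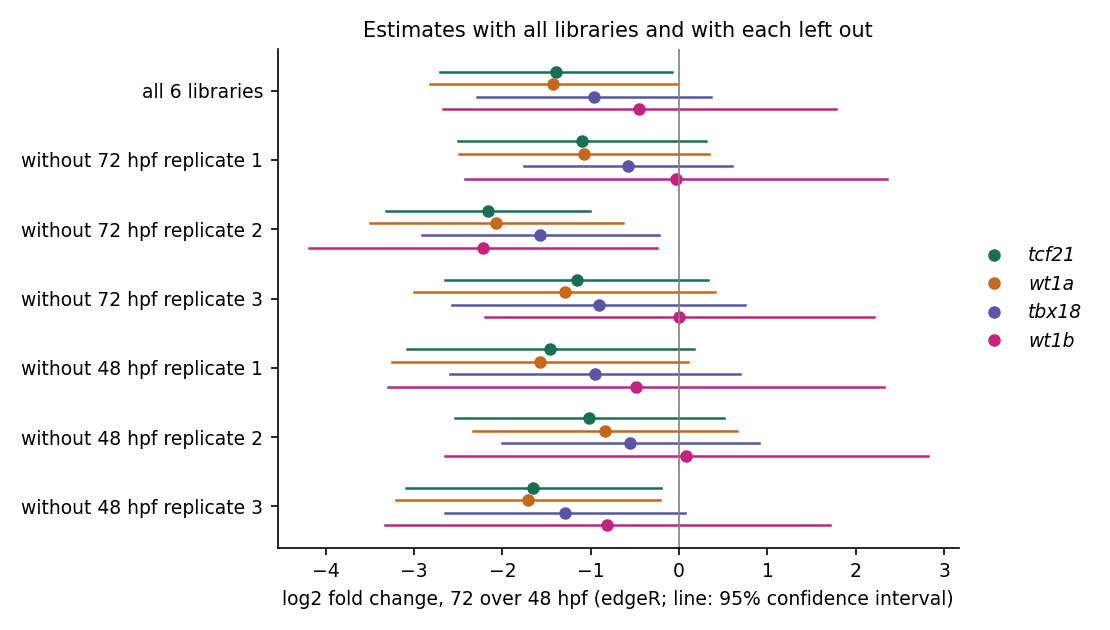
Log2 fold change of the 4 genes, 72 over 48 hpf, from edgeR with all 6 libraries and with each library left out in turn; points are estimates and lines 95% confidence intervals. The points of all 4 genes lie farthest to the left without replicate 2 at 72 hpf, between -2.22 and -1.57, and those of wt1b are at or just above 0 without replicate 3 at 72 hpf or replicate 2 at 48 hpf.

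The 4 genes were next compared with each other inside each library, where sequencing depth drops out. No transcript lengths were used, so that a gene with more counts than another need not have more transcripts, but the ratio of a pair can be followed across libraries. The ratio of tcf21 to wt1a counts was the steadiest, at 1.15, 1.04 and 0.768 in replicates 1, 2 and 3 at 72 hpf, against 1.14, 0.852 and 1.08 at 48 hpf. It varied by 1.49-fold over the 6 libraries, although each gene varied by 6.95-fold (tcf21) or 9.36-fold (wt1a). The ratio of wt1a to tbx18 varied by 1.79-fold and that of tcf21 to tbx18 by 2.51-fold.

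The duplicates wt1a and wt1b did not keep a steady ratio. There were 1.74, 0.897 and 4.10 counts of wt1a for each of wt1b in replicates 1, 2 and 3 at 72 hpf, against 2.01, 2.53 and 3.21 at 48 hpf. In replicate 2 at 72 hpf wt1b thus had more counts than wt1a, and in the other 5 libraries fewer. A two-sided exact permutation test of this ratio between the stages gave p = 0.6. For the other 5 pairs the same test gave p-values from 0.2 to 1. With 3 libraries against 3 the test cannot go below 0.1, so that it cannot show whether the ratios changed with stage.

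Each gene's CPM was also divided by its sum over the 6 libraries, which gives a profile of shares that adds to 100%. The distance of a pair of profiles was taken as the part of the shares that does not overlap, 0 for equal profiles and 1 for no overlap. The profiles of tcf21 and wt1a were 0.0658 apart and those of tcf21 and tbx18 0.0732, whereas wt1b was 0.173 from tcf21, 0.189 from wt1a and 0.153 from tbx18. The median distance of tcf21 to the 16099 other tested genes was 0.301. Ordered by their distance to tcf21, wt1a came 19th and tbx18 28th among these genes, but wt1b came 735th. Ordered by distance to wt1b, the nearest of the other factors was tbx18, in place 157. Replicate 2 at 72 hpf held 34.1% of the wt1b profile, against 16.8% for tcf21, 15.7% for wt1a and 19.1% for tbx18.

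**Figure D3:**
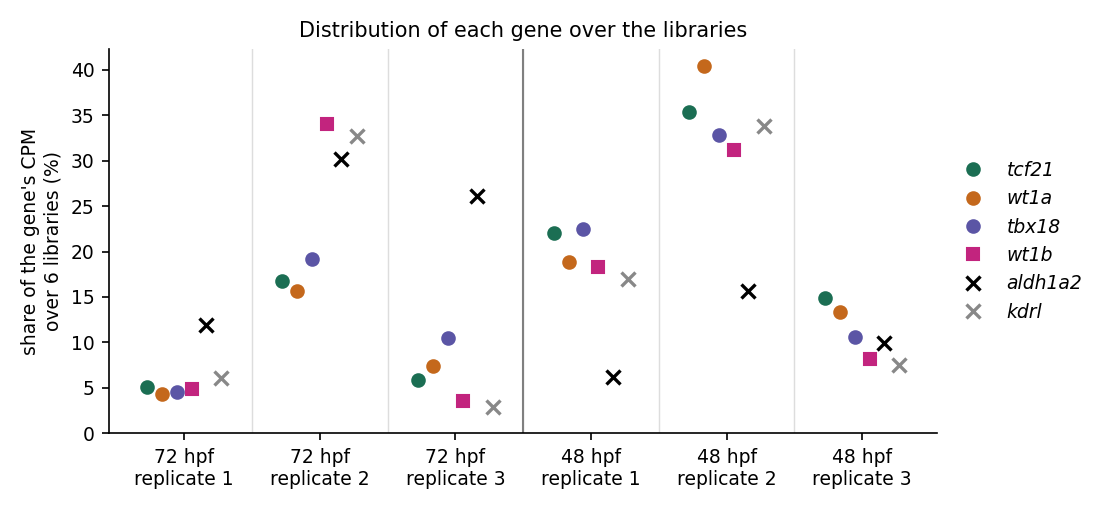
Share of each gene's CPM, summed over the 6 libraries, that fell in each library (%), for the 4 factors, for aldh1a2 and for the endothelial gene kdrl, with the 72 hpf libraries on the left. The tcf21, wt1a and tbx18 points stay together, wt1b lies with kdrl in replicate 2 at 72 hpf (34.1% for wt1b), and aldh1a2 has its largest shares in replicates 2 and 3 at 72 hpf.

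The tested genes with profiles closest to each factor were looked up next, as a description over 6 libraries. Closest to tcf21 were both Ensembl genes named robo2, which encode a receptor for Slit guidance cues, at distances of 0.0426 and 0.0438. The tetraspanin gene tspan4b (0.0468) and phldb2a (0.0470), whose mammalian counterpart anchors microtubules at the cell cortex, came after them. The first of the robo2 genes was also closest to wt1a, at 0.0377, followed by the membrane metalloproteinase gene mmp14b (0.0506), rgl1 (0.0525) and the forkhead gene foxn3 (0.0549). For tbx18 the closest genes were phldb2a (0.0340), raver2 (0.0395), si:ch211-227m13.1 (0.0397) and the collagen lysyl hydroxylase gene plod2 (0.0499). The robo2 counts, for example, were 151, 543 and 123 at 72 hpf, against 642, 1545 and 378 at 48 hpf.

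The closest gene to wt1b was kdrl, which encodes a receptor for vascular endothelial growth factor and marks endothelial and endocardial cells. It was 0.0398 away, with 198, 1044 and 73 counts at 72 hpf, against 573, 1361 and 197 at 48 hpf. After it came si:dkey-174i8.1 (0.0614), the ectonucleotidase gene entpd2a.1 (0.0622) and nt5dc2 (0.0660). These 4 genes were not among the 4 closest to any other factor.

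Because kdrl had this profile, the endothelial and endocardial markers were read as a whole. Of 8 markers 7 were tested, 6 with a lower and 1 with a higher estimate at 72 hpf. The 8 summed to 106, 333 and 86.7 CPM in replicates 1, 2 and 3 at 72 hpf, against 241, 392 and 123 CPM at 48 hpf. The 4 factors summed to 79.0, 334 and 145 CPM at 72 hpf, against 366, 592 and 199 CPM at 48 hpf, so that replicate 2 was the highest library of each stage by both sums. Most of the marker sum in replicate 2 was kdrl itself, with 234 CPM at 72 hpf and 242 CPM at 48 hpf. The likeness of the sums therefore largely restates the match of kdrl with wt1b. Of the 7 tested markers 3 were highest in replicate 2 at both stages, beside 14.3% of all tested genes. At 72 hpf fli1a, an ETS factor gene, had 0 counts in all libraries, against 152, 333 and 165 at 48 hpf. DESeq2 called it lower, beside 2.85% of its tested genes. The receptor gene tie1 also had 0 counts in all 72 hpf libraries, against 49, 1 and 4 at 48 hpf. The gene tek had 0, 3 and 0 counts at 72 hpf, against 55, 41 and 1 at 48 hpf. Other markers of the list stayed well above the floor. The higher estimate was that of nfatc1, with 246, 309 and 209 counts at 72 hpf, against 222, 199 and 37 at 48 hpf (log2 fold change 0.96). Counts of cdh5 were 36, 116 and 26 at 72 hpf, against 47, 182 and 50 at 48 hpf (log2 fold change -0.45). The gene pecam1 was at or under 3 counts in every library of both stages. The 10 leukocyte markers summed to 3.08, 118 and 3.08 CPM at 72 hpf, against 415, 359 and 789 CPM at 48 hpf, and 3 of them (spi1b, lyz and mpx) were at or under 3 counts in every 72 hpf library. At 48 hpf spi1b had 176, 154 and 316 counts, but lyz had 114, 5 and 1 and mpx had 232, 0 and 0. The 6 erythrocyte markers summed to 2.20, 72.8 and 4.47 CPM at 72 hpf, against 6.99, 9.59 and 216 CPM at 48 hpf. Replicate 2 was thus also the highest 72 hpf library for leukocyte and erythrocyte markers, while replicate 3 was the highest for both at 48 hpf. The 6 ventricular CM markers summed to 715, 566 and 825 CPM at 72 hpf, against 1416, 1014 and 1682 CPM at 48 hpf. Most of this was myh7, with 686, 528 and 765 CPM at 72 hpf, against 1107, 862 and 1354 CPM at 48 hpf. The study saw weak signal of its myh7 reporter in the atrium too. The sums of the stages did not overlap, where 8.90% of tested genes had all 72 hpf libraries below those of 48 hpf. DESeq2 called 2 of the markers lower (myh7 and myh7l), beside 2.85% of its tested genes. By contrast hey2 had 41, 26 and 74 counts at 72 hpf, against 0, 39 and 0 at 48 hpf, and irx4a had 0 in every library. The 5 genes listed for the atrioventricular canal (bmp4, tbx2b, has2, vcana and nppa) summed to 1295, 1167 and 1378 CPM at 72 hpf, against 1528, 1418 and 1753 CPM at 48 hpf. Of these, nppa is also in the atrial CM list and does not set the canal apart from the atrium. It held 559, 552 and 671 CPM at 72 hpf, against 557, 450 and 669 CPM at 48 hpf. The sum is therefore not particular to the canal. The gene has2, which makes hyaluronan, had 16, 0 and 0 counts at 72 hpf, against 253, 914 and 259 at 48 hpf. The part of these cell types in the values of the 4 factors was not tested.

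The other epicardial genes were divided in their direction. Of 17 listed genes 15 were in the table under these symbols and tested, 8 with a higher and 7 with a lower estimate at 72 hpf, and their median log2 fold change was 0.04. EdgeR called 0 of them, at an unadjusted p below 0.05 there were 1 higher and 0 lower, and DESeq2 called 0. The genes nearest to the factors in profile were itga4, bnc2 and fn1b, in places 110, 113 and 182 of 16096 tested genes ordered by distance to the mean profile of the 4 factors. The integrin gene itga4, needed in mice to attach the epicardium to the myocardium, had 58, 400 and 225 counts at 72 hpf, against 770, 1472 and 286 at 48 hpf, with a log2 fold change of -1.62 (SE 0.69, adjusted p = 0.564 from edgeR). The zinc finger gene bnc2 had 486, 1279 and 677 counts at 72 hpf, against 1283, 2604 and 878 at 48 hpf, and the fibronectin gene fn1b had 390, 2714 and 2039 at 72 hpf, against 3618, 5730 and 1127 at 48 hpf.

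The gene with an unadjusted p below 0.05 in that list was aldh1a2, and it was higher at 72 hpf. It encodes the enzyme that makes retinoic acid from retinaldehyde and is used as an epicardial marker, but it also acts in endocardium and other tissues. Its counts were 601, 1496 and 1040 at 72 hpf, against 325, 979 and 407 at 48 hpf. Replicate 2 was again the highest library of each stage, and the stages overlapped. The log2 fold change was 1.09 (SE 0.43, unadjusted p = 0.0373, adjusted p = 0.558 from edgeR), where 3.12% of all tested genes were higher at this unadjusted level. The genes of the list with the highest mean CPM were podxl, fn1b, sema3fb and tgm2b, and apart from fn1b their log2 fold changes were between -0.07 for podxl and 0.15 for sema3fb.

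**Figure D4:**
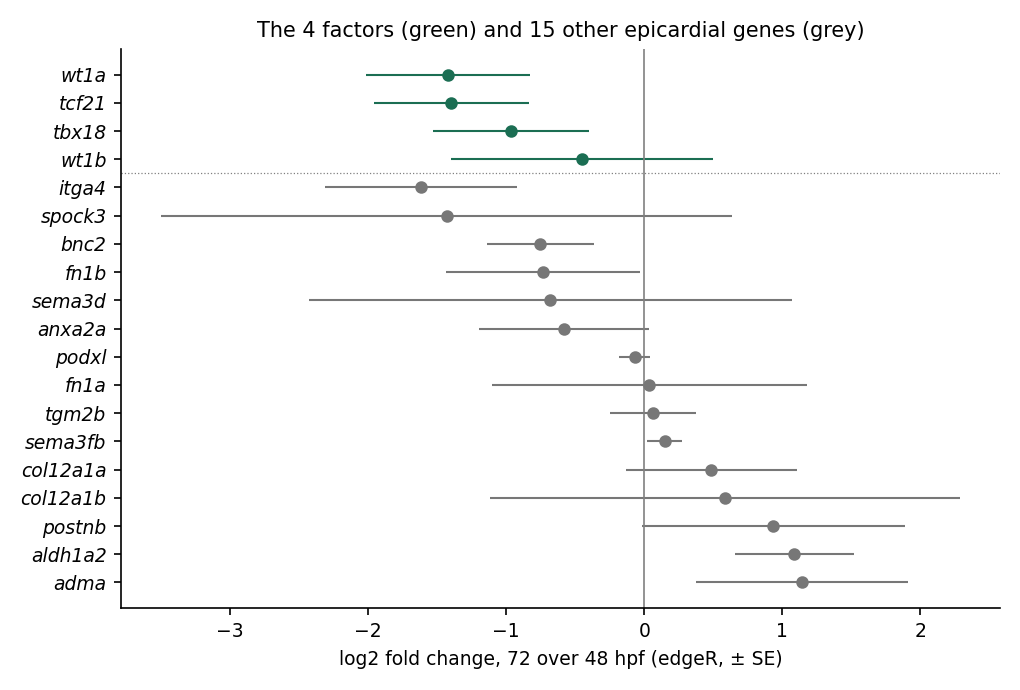
Log2 fold change, 72 over 48 hpf, with its standard error from edgeR for the 4 factors (green, upper rows) and for 15 other epicardial genes (grey, lower rows), each set in order of the estimate. The factors lie between -1.42 and -0.45, and the other genes reach from -1.62 for itga4 to 1.14 for adma, on both sides of 0.

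The opposite estimates of aldh1a2 and the factors were set against each other in the same library, a ratio chosen after the values had been seen. For each 100 counts of aldh1a2 there were 11.6, 15.2 and 6.06 counts of tcf21 in replicates 1, 2 and 3 at 72 hpf, against 97.2, 61.6 and 40.8 at 48 hpf. For wt1a there were 10.1, 14.6 and 7.88 at 72 hpf, against 85.2, 72.3 and 37.8 at 48 hpf, and for tbx18 there were 32.1, 53.8 and 33.8 at 72 hpf, against 307, 178 and 90.7 at 48 hpf. For wt1b there were 5.82, 16.2 and 1.92 at 72 hpf, against 42.5, 28.6 and 11.8 at 48 hpf, and it was the gene of the 4 whose stages overlapped.

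The log2 ratios to aldh1a2 differed between 72 and 48 hpf by -2.61 for tcf21, -2.55 for wt1a, -2.14 for tbx18 and -2.10 for wt1b. These are descriptions with no test, because aldh1a2 was taken for its opposite estimate, and 18.7% of all tested genes had 72 hpf ratios entirely below those of 48 hpf.

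**Figure D5:**
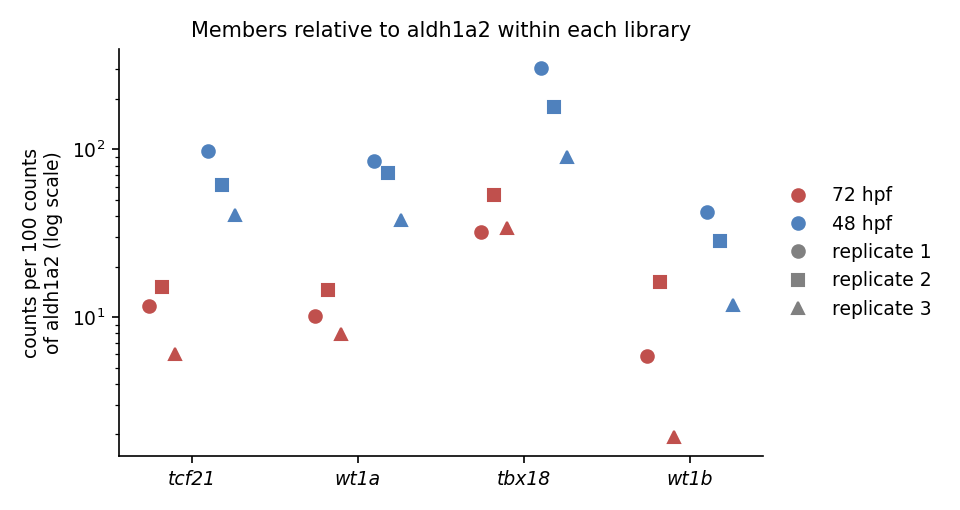
Counts of each factor for 100 counts of aldh1a2 in the same library, on a log scale, with 72 hpf in red left of 48 hpf in blue and symbols for the replicate number. For tcf21 the 72 hpf libraries are between 6.06 and 15.2 and the 48 hpf libraries between 40.8 and 97.2, and wt1b is the gene whose stages overlap.

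Signals that induce the proepicardium and factors of the heart field were divided in their direction too. The list held 12 genes, all tested, 7 with a higher and 5 with a lower estimate at 72 hpf, and their median log2 fold change was 0.06. EdgeR called 0 of the 12, with 1 higher, beside 3.12% of all tested genes, and 0 lower at an unadjusted p below 0.05, and DESeq2 called 1 higher, beside 1.18% of all. That gene was tbx5b, a T-box gene of the heart field, with 320, 302 and 192 counts at 72 hpf, against 155, 159 and 111 at 48 hpf. Its log2 fold change was 1.05 (SE 0.28, adjusted p = 0.400 from edgeR and 0.00950 from DESeq2). The ligand gene bmp4, which acts upstream of proepicardial fate in zebrafish, had a log2 fold change of -0.35 (SE 0.16), and its receptor gene acvr1l one of 0.08 (SE 0.14). The GATA factor genes gata5 and gata6 and the helix-loop-helix gene hand2 had log2 fold changes of -0.02, -0.17 and 0.08.

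Regulators of the epithelial to mesenchymal transition, through which epicardial cells enter the wall, had mostly lower estimates at 72 hpf. Of 13 listed genes 12 were tested, 10 with a lower and 2 with a higher estimate, and their median log2 fold change was -0.76. EdgeR called 0, at an unadjusted p below 0.05 there were 3 lower, beside 5.61% of all tested genes, and 0 higher, and DESeq2 called 2 lower (twist1b and sox9a), beside 2.85% of all. The twist gene twist1b had 34, 94 and 123 counts at 72 hpf, against 475, 811 and 374 at 48 hpf. Its stages did not overlap, where 8.90% of tested genes had all 72 hpf libraries below those of 48 hpf. Its log2 fold change was -2.48 (SE 0.53, adjusted p = 0.320 from edgeR). The Sox gene sox9b had 0, 25 and 66 counts at 72 hpf, against 286, 556 and 165 at 48 hpf, and sox9a had 5, 25 and 0 counts at 72 hpf, against 145, 471 and 65 at 48 hpf. The genes zeb1b and zeb2a, with the highest mean CPM of the list, had log2 fold changes of -0.18 and -0.50, and snai2 one of 0.12. The zinc finger gene snai1a had the profile most like the factors in this list, with 148, 193 and 96 counts at 72 hpf, against 261, 541 and 83 at 48 hpf. Neural crest and valve cells use many of these genes too, and their part was not tested.

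Proteins known to pair with the 4 factors were represented by 8 genes, and all 8 had a lower estimate at 72 hpf, the median being -0.44 on the log2 scale, beside 8290 of 16100 tested genes with a lower estimate and a median of -0.02. EdgeR called 0, at an unadjusted p below 0.05 there were 1 lower, beside 5.61% of all tested genes, and 0 higher, and DESeq2 called 0. The lower gene was tcf3b, for an E protein of the kind with which Tcf21 forms dimers, with 699, 800 and 587 counts at 72 hpf, against 1039, 1292 and 832 at 48 hpf (log2 fold change -0.46, SE 0.13, adjusted p = 0.402 from edgeR). The E protein gene tcf12 had a log2 fold change of -0.23 and wtap, named for the binding of its human product to WT1, one of -0.17. The Groucho corepressor gene tle3a, of the family that Tbx18 recruits in mice, had 364, 689 and 157 counts at 72 hpf, against 695, 1067 and 283 at 48 hpf. It was the listed gene with the profile closest to the factors, in place 48 of 16096.

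Relatives of the factors were counted to see whether the family shared their pattern. Of 13 listed genes 12 were in the table and 11 tested, 5 with a higher and 6 with a lower estimate, and their median log2 fold change was -0.09. EdgeR called 0, at an unadjusted p below 0.05 there were 2 lower (tbx1 and tbx2b), beside 5.61% of all tested genes, and 0 higher, and DESeq2 called these 2, beside 2.85% of all. The T-box gene tbx1, of the subfamily of tbx18, had 0 counts in all 72 hpf libraries, against 50, 179 and 50 counts at 48 hpf, which is at least 25.8-fold lower in mean CPM when a floor of 3 counts per library stands for 72 hpf. The relatives nearest to tbx18, tbx15 and tbx22, had at most 52 and 21 counts in any 72 hpf library, and at most 118 and 11 at 48 hpf. The zinc finger gene egr1, whose product binds sites like those of Wt1, had a log2 fold change of 0.14, and egr3 of the same family one of -0.56 (SE 0.28). The paralog pair tbx2a and tbx2b, for repressors of the T-box family that act in the atrioventricular canal, had log2 fold changes of -0.09 (SE 0.25) and -0.67 (SE 0.17, adjusted p = 0.394 from edgeR).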

How the data were processed

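RNA of sorted zebrafish atrial CMs was amplified with SMART-Seq HT and sequenced single-end. The deposited values are raw counts per gene. Per the labels and methods, the authors used Trimmomatic 0.39, STAR 2.7.10a on danRer11, Picard 3.0.0 and featureCounts 2.0.4, and took out duplicates, reads with several alignments, reads of ribosomal or mitochondrial origin and reads on more than 1 gene. The strand setting is not given in the sources used here.

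Counts were compared with edgeR 4.0.16 (TMM, robust quasi-likelihood test, stage as the design) in R 4.3.3 for genes with a mean normalized count above 5. Standard errors were derived from the estimate and its F statistic. Calls needed an adjusted p below 0.05 and a log2 fold change beyond 0.585. Alternatives were DESeq2 1.42.0, limma 3.58.1 with voom and quality weights, RLE factors, other filters, no fold threshold, other pseudocounts, replicate block, sorter covariate, and each library left out; replicates 1 and 2 only was added after the data were seen. The authors' own tool was DESeq2. The 4 genes and all lists were chosen with earlier results of these data known. Beyond the 4 genes, the text names list genes with an unadjusted p below 0.05, the 4 of each gene list with the highest mean CPM and the 4 genes closest in profile to each factor; others, such as the ratio to aldh1a2 and the profile order within lists, were chosen after values were seen. No sequences were printed, since no sequence table was used here.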

Additional observations from a re-analysis of the deposited data

How the results depend on the processing

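The lower estimates of tcf21, wt1a and tbx18 at 72 hpf kept their direction in the 14 alternative fits, from -2.16 to -1.01 for tcf21, from -2.07 to -0.83 for wt1a and from -1.57 to -0.55 for tbx18, and none of the 4 genes was called in any. The estimate of wt1b was between -2.22 and 0.08 and changed sign in 2 fits (0.00 without replicate 3 at 72 hpf, 0.08 without replicate 2 at 48 hpf). All of these extremes came from leaving out a library. Same-numbered libraries deviated together little (correlations of deviations over genes of -0.01, 0.09 and 0.01). The value for replicate 2 was the highest of any pair of libraries across the stages. Not every library correlated best with its own number, so the numbers were not taken to pair them. With the replicate block the log2 fold changes were -1.53, -1.47, -1.04 and -1.01 for tcf21, wt1a, tbx18 and wt1b, with adjusted p-values from 0.457 to 0.669.

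Genes called higher and lower at 72 hpf numbered 1 and 0 in edgeR, 186 and 451 in DESeq2, 2 and 9 without a filter, and 0 and 0 with voom, the replicate block, the sorter as covariate or replicates 1 and 2 only. Leaving out a library gave 0 to 1 higher and 0 lower.

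Duplicate removal keeps 1 single-end read per start and strand. Whether it limited the counts of highly expressed genes such as myl7 was not tested. The annotated span of tcf21 is 1428 bases, and its 603 counts in replicate 2 at 48 hpf fill 21.1% of the 2856 possible starts. The wt1b annotation shares 665 bases (2.88% of its span) with kifc3 on the opposite strand, and reads on both genes were left out of the deposited counts unless strand was used.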

Other observations

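The genes tbx18 and tcf21 are 435897 bases apart on chromosome 23 of danRer11, with 9 annotated genes between them in the deposited table. Of these, 7 were tested, 4 with a higher and 3 with a lower estimate at 72 hpf, and 0 had an unadjusted p below 0.05 from edgeR. The gene next to tcf21 on this side, eya4, which encodes a transcriptional coactivator and phosphatase, had 98, 288 and 128 counts at 72 hpf, against 234, 485 and 243 at 48 hpf. Its replicate 2 was also the highest library of each stage, as for 14.3% of all tested genes. It was 0.155 from tcf21 in profile, where wt1b at 0.173 came only 735th. The nearest gene on the other side of tcf21, tbpl1, was also 0.173 away. The ribosomal protein gene rps12, between tbx18 and tcf21, had 320, 348 and 307 counts at 72 hpf, against 261, 319 and 268 at 48 hpf.

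Genes of other tissues in which these factors act were read as well. The podocyte gene nphs1 had at most 11 counts at 72 hpf and at most 37 at 48 hpf, and the pronephric genes pax2a, pax8 and lhx1a had at most 2 counts in any library. The pharyngeal muscle gene myod1 had 0, 1 and 1 counts at 72 hpf, against 144, 79 and 29 at 48 hpf.

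Mesenchymal and mural genes had mostly higher estimates. Of 10 tested, 7 were higher and 3 lower in their estimate, the median being 0.81 on the log2 scale, and 0 were called by edgeR or DESeq2, with 0 at an unadjusted p below 0.05. Those with the highest mean CPM were acta2, for smooth muscle actin, with a log2 fold change of -0.03, and the type I collagen genes, among them col1a1a with 0.71 and col1a1b with 0.91. Replicates of a stage differed widely for some of them. The gene col1a2 had 215, 1752 and 2378 counts at 72 hpf, against 1151, 447 and 239 at 48 hpf, and pdgfra, a receptor gene of epicardium-derived fibroblasts, had 570, 918 and 717 counts at 72 hpf, against 1151, 1058 and 567 at 48 hpf.

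Of 6 genes listed for pericardium and mesothelium 5 were tested, 4 with a higher and 1 with a lower estimate at 72 hpf. Of these, 0 were called by edgeR or DESeq2, with 0 at an unadjusted p below 0.05. The list is not particular to these tissues, and hand2 is also in the list of heart field factors. The lower estimate was that of jam2b, a junction gene of the lateral plate mesothelium, with 98, 490 and 182 counts at 72 hpf, against 309, 746 and 95 at 48 hpf. The keratin genes krt4 and krt5 set libraries of the same stage apart, krt4 with 9, 1221 and 1875 counts at 72 hpf, against 2258, 1033 and 447 at 48 hpf, and krt5 with 2, 925 and 1379 counts at 72 hpf, against 1441, 18 and 6 at 48 hpf. Which cells the keratin counts came from was not tested. The junction gene tjp1a had a log2 fold change of 0.33 (SE 0.17).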
